A study of Mus musculus with 12 samples.

Results

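The 10 genes described here belong to the integrated stress response. They were chosen by name for their place in that pathway: the eIF2 kinases *Eif2ak4* and *Eif2ak3*, the transcription factors *Atf4*, *Atf5* and *Ddit3*, the ATF4 targets *Asns*, *Trib3* and *Sesn2*, and the phosphatase subunits *Ppp1r15a* and *Ppp1r15b*. All 10 were among the 41255 genes of the mRNA table and the 10080 genes of the table of ribosome-protected mRNA fragments (RPFs). The libraries came from monoclonal cultures of Ba/F3, a mouse lymphoid cell line that depends on interleukin-3. Every culture expressed human *RPL10* from a retroviral vector while an shRNA knocked down the endogenous mouse *Rpl10*, so that WT and R98S clones differed by design only in the *RPL10* allele they received. R98S clones 11, 13 and 35 were compared with WT clones 28, 29 and 36, each with 1 mRNA library and 1 ribosome footprinting library, which makes 12 libraries. All 6 cultures were exposed to cycloheximide, which arrests elongating ribosomes, at 100 µg/ml for 5 min before lysis. Each value stands for 1 library of 1 monoclonal culture. The spread within a genotype thus holds differences of clone, culture and library preparation, which cannot be told apart. The p-values below measure the genotypes against that spread.

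In the integrated stress response, different stresses activate kinases that phosphorylate the initiation factor eIF2. GCN2 (*Eif2ak4*) responds to uncharged tRNA and stalled ribosomes, and PERK (*Eif2ak3*) to misfolded protein in the endoplasmic reticulum. Phosphorylated eIF2 lowers general initiation, whereas upstream reading frames in the *Atf4* leader let its main coding sequence be translated more. ATF4 then raises genes of amino acid supply and stress handling, and GADD34 (*Ppp1r15a*) and CReP (*Ppp1r15b*) direct a phosphatase back to eIF2. The comparison of genotypes asks whether a ribosome with the R98S allele leaves these genes at another level of mRNA, of RPF, or of translation efficiency (TE, RPF over mRNA in the same clone).

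The mRNA libraries held 6617457 to 23136595 counted reads, with WT clone 28 lowest, where 1 read was worth 2.69 normalized counts. The footprinting libraries held 3477723 to 10883086 reads, with R98S clone 35 lowest, where 1 read was worth 1.68 normalized counts. Both tables hold gene counts divided by the size factor of each library. The clones did not separate by the targeted gene: *Rpl10* mRNA ranged from 1449 to 2905 normalized counts over R98S clones and from 2230.3 to 4501 over WT clones, and reads of the human transgene may count toward it. Of 12 markers of a lymphoid, interleukin-3 dependent line, 6 had a mean mRNA level of at least 10 normalized counts, and *Pax5* and *Il7r* were at 0 in all 6 libraries. Of 6 mast cell markers, 4 reached that mean, with a summed level from 178 to 1468, and *Kit* was at 0 in all 6 libraries. Of these, *Cpa3* ran from 253 to 787 in R98S and from 13.4 to 174 in WT clones, and its part in the results was not tested. Of 3 macrophage markers, 2 reached that mean, while 0 of 4 T cell and 0 of 3 fibroblast markers did.

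The leader sequences of these genes set the frame for the footprint values. In the principal GENCODE transcripts, 8 of the 10 genes carried at least 1 upstream ATG, against 49.6% of 8686 genes. These 8686 had a measured footprint density and an annotated leader. A frame that ran over the coding start was carried by 3 of the 10, against 15.6%. Since the genes were chosen partly for such frames, these shares describe the choice. *Atf4* had 3 upstream ATGs. They opened frames of 36 and 3 codons that ended in the leader and a frame of 59 codons that began 97 bases before the main start and ran past it. The leader of *Atf5* was built alike, with a frame of 3 codons and a frame of 58 codons that began 121 bases before the main start and overlapped it. *Ddit3* had 2 upstream ATGs that shared 1 stop codon, giving 34 or 31 codons, and *Ppp1r15a* had 3 frames of 45, 34 and 26 codons. *Ppp1r15b* had 3 frames of 2, 8 and 51 codons, *Sesn2* had 1 of 22 codons, and *Eif2ak4* and *Trib3* had 0. *Asns* had 2 upstream ATGs with a common stop codon, giving 14 or 13 codons. They lie near the beginning of the GENCODE leader, and a transcript from the RefSeq start used below would not hold them. RPFs were counted by the authors only over coding sequences, without the first 15 and last 5 codons, so footprints on the upstream frames were not part of the values below. The overlapping frames still reached into the counted part, by 38 of 987 bases in *Atf4*, 11 of 789 in *Atf5* and 224 of 3282 in *Eif2ak3*.

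**Figure D1:**
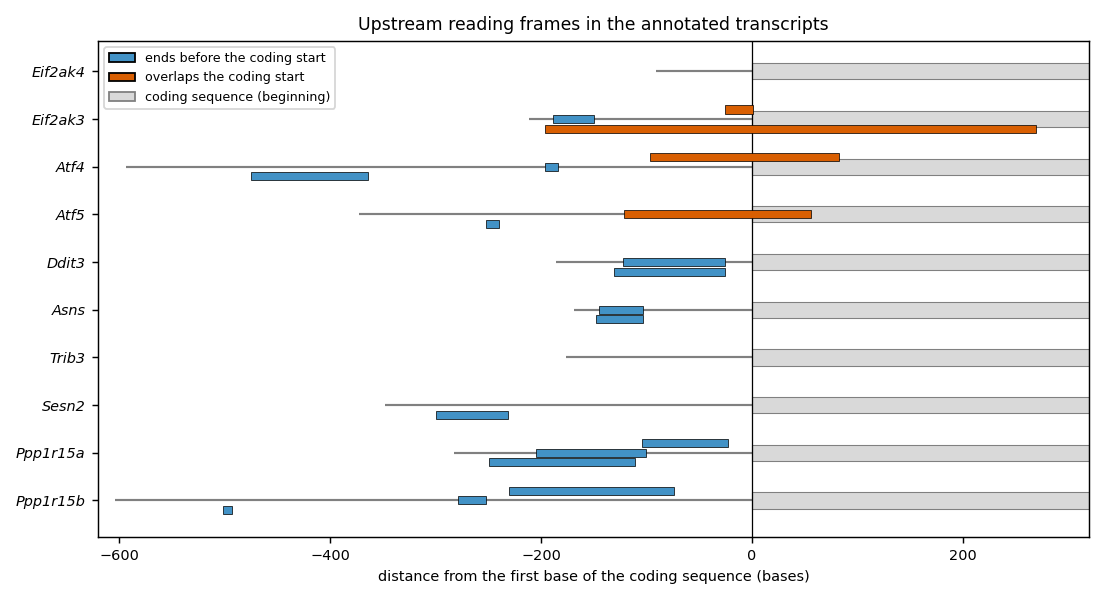
Upstream reading frames of the 10 genes, drawn to scale against the distance from the first coding base in bases. Lines are 5′ leaders, blue boxes are frames that end before the coding start, orange boxes are frames that overlap it, and grey boxes are the beginning of the coding sequence. Overlapping frames are seen in *Atf4*, *Atf5* and *Eif2ak3*, and *Eif2ak4* and *Trib3* have no frame.

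ATF4 binds as a dimer with C/EBP proteins to the C/EBP-ATF response element. The letters TGATGNAA, or TTNCATCA on the other strand, were searched in RefSeq promoters (GRCm38.p6, from 250 bases before to 50 bases after an annotated start). Of the 10 genes, 9 had an entry, *Ppp1r15b* being the exception, and 2 of these 9 held the letters, against 4.51% of all 27025 genes with an entry (3.97% of 32851 promoters). Among 40 further ATF4 targets with an entry, 14 held them. Both sets were chosen by name for their place in the ATF4 pathway, so these shares describe the choice. The windows of *Asns* and *Trib3* are shown because they are the 2 matches among the 10 genes. Both are written 5′ to 3′ on the strand of the gene, with the element in capitals, and lie on the minus strand at chr6:7693214-7693243 and chr2:152344028-152344057.
Asns: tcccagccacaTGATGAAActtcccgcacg
Trib3: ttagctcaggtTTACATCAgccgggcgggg
The element of *Asns* began 23 bases before the RefSeq start and lay inside exon 1 of the GENCODE transcript, which begins further upstream. The upstream ATGs of *Asns* named above share bases with this element. The same bases thus count as leader by GENCODE and as promoter by RefSeq. That of *Trib3* began 14 bases after the RefSeq start and ended 7 bases before the GENCODE start. Binding was not measured, and the absence of a match in the other 7 says only that these letters were not in the window.

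Changes were tested with limma on log2(normalized count + 1) over all genes with a mean of at least 10 normalized counts, and a Benjamini-Hochberg adjusted p under 0.1 was the threshold for a change. On this scale, differences of genes with few counts come out too small. For mRNA, 1 of the 10 genes passed, *Atf5*, which was lower in R98S clones, against 6.94% of 11344 tested genes called in either direction and 3.91% called lower. For RPF, 0 of 10 passed in limma, against 7.76% of 9580 tested genes, while 2 genes (*Atf4* and *Atf5*) had an unadjusted p under 0.05, as did 20.3% of all genes. On recovered reads, edgeR called 0 of the 10 in RPF, against 8.35% of all genes, and DESeq2 called 1, *Atf5*, against 11.4%. For TE, 9 genes had at least 10 normalized counts in all 12 libraries and 0 passed in limma, edgeR or DESeq2, against 0.0221%, 0.0332% and 0.597% of 9043 tested genes. In limma, *Atf4* alone of the 9 had an unadjusted p under 0.05 for TE, as did 7.85% of all genes. The median log2 change of the 10 genes was -0.27 in mRNA and -0.12 in RPF, and that of the 9 genes in TE was 0.01, beside 0.01, 0.01 and -0.00143 over all tested genes.

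**Figure D2:**
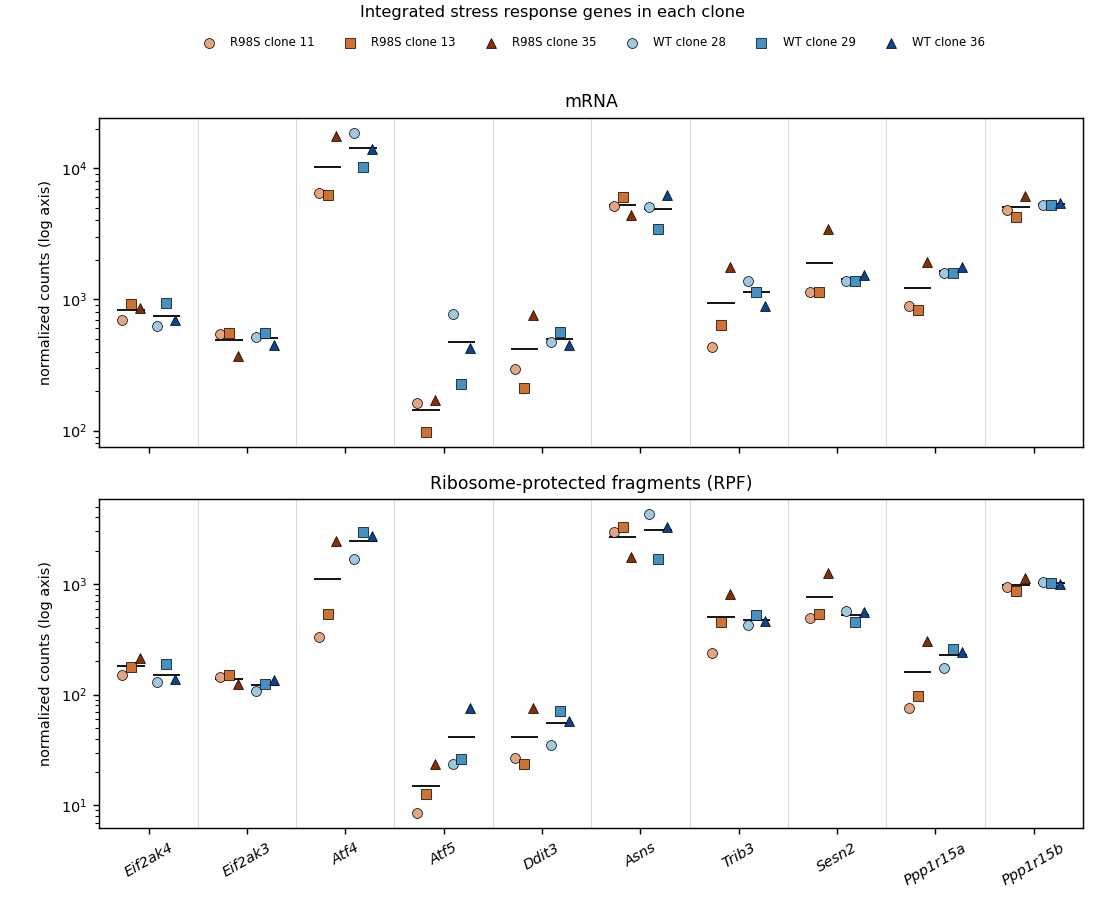
Normalized counts of the 10 genes in mRNA (top) and RPF (bottom) on log axes, 1 point per clone, with R98S clones in orange to brown, WT clones in blue and bars at the mean of each genotype. R98S clone 35 (dark triangles) lies above R98S clones 11 and 13 for *Atf4*, *Ddit3*, *Trib3*, *Sesn2* and *Ppp1r15a* in both panels.

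**Figure D3:**
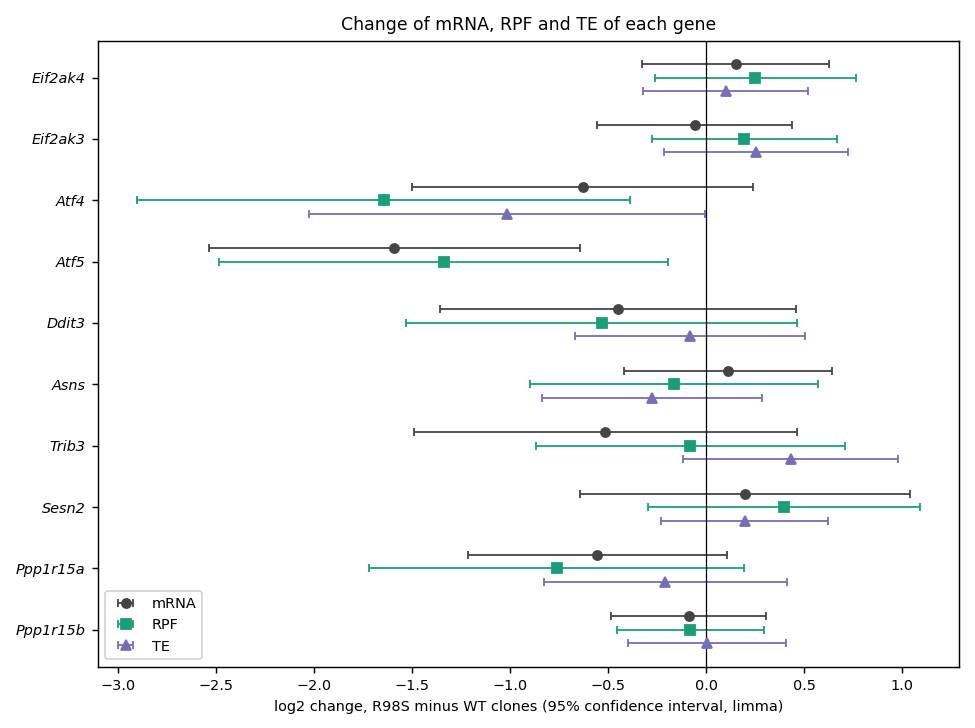
Log2 change in R98S against WT clones with the 95% confidence interval from limma, for mRNA (circles), RPF (squares) and TE (triangles). The intervals that exclude 0 are those of *Atf5* in mRNA and RPF and of *Atf4* in RPF and, narrowly, TE.

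Neither kinase gene passed the test in mRNA, RPF or TE. *Eif2ak4* (chr2:118388618-118475234, mm10, plus strand) encodes GCN2. R98S clones 11, 13 and 35 held 700.2, 925 and 854 normalized counts of its mRNA, and WT clones 28, 29 and 36 held 623, 935 and 690.4. RPFs of the R98S clones came to 149, 179 and 213, and those of the WT clones to 129, 187 and 140. In both assays, the genotypes overlapped, and WT clone 29 had about the level of the upper R98S clones. The log2 change was 0.15 in mRNA (95% confidence interval -0.32 to 0.63) and 0.25 in RPF (-0.26 to 0.76), with adjusted p of 0.764 and 0.584 (limma). With chromosome medians removed, the log2 change was 0.0043 in mRNA and 0.18 in RPF. Its TE hardly varied in WT clones, from 0.2004 to 0.207, and ran from 0.194 to 0.2498 in R98S clones. *Eif2ak3* (chr6:70844515-70905245, plus strand) encodes PERK, and 485 of its exon bases are shared with *Gm43292* on the opposite strand. The R98S clones, in the same order, held 549, 556 and 371 of its mRNA and the WT clones held 516, 553 and 448. For RPF, the R98S clones held 145, 150.02 and 124 and the WT clones held 107, 125 and 134. The genotypes overlapped in both, with R98S clone 35 lowest in mRNA. Its log2 change was -0.06 in mRNA (adjusted p = 0.926, limma), of which the sign turned with chromosome medians removed (0.02), and 0.20 in RPF (adjusted p = 0.652, limma).

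*Atf4* (chr15:80255184-80257541, plus strand), the transcription factor at the centre of the response, had an RPF change of -1.64 in limma, the largest fall of the 10 genes there, whereas edgeR and DESeq2 gave it -1.15 and -1.14 and gave *Atf5* a larger fall (-1.58 and -1.55). The mRNA of R98S clones 11, 13 and 35 came to 6495, 6216 and 17712 normalized counts, against 18486, 10161 and 14104 for WT clones 28, 29 and 36. R98S clones 11 and 13 were below every WT clone, and R98S clone 35 was within the WT range. The log2 change was -0.63 (standard error 0.39, adjusted p = 0.444, limma). Footprinting gave 332, 538 and 2458 for the R98S clones and 1681, 2938 and 2726 for the WT clones. Here too, R98S clones 11 and 13 lay far below the WT clones, while R98S clone 35 lay among them. The log2 change of RPF was -1.64 (95% confidence interval -2.90 to -0.39, unadjusted p = 0.0151, adjusted p = 0.138, limma), and the exact permutation test gave a two-sided p of 0.2, where 0.1 is the smallest possible with 3 against 3 clones. Its TE was 0.0512, 0.0866 and 0.139 in R98S clones and 0.0910, 0.289 and 0.193 in WT clones. The ranges overlapped, since R98S clone 35 exceeded WT clone 28. The mRNA library of WT clone 28 had the lowest depth but held 6884 reads of *Atf4*, beside 1760 RPF reads. The part of depth was not tested. The log2 change of TE was -1.01 (95% confidence interval -2.02 to -0.00, unadjusted p = 0.0490, adjusted p = 0.629, limma), and leaving out single clones moved it within -1.47 to -0.64.

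*Atf5* (chr7:44812256-44816658, minus strand) encodes a transcription factor related to ATF4 whose leader has a like arrangement of upstream frames. It was the only one of the 10 genes whose clones were separated by genotype. In mRNA, normalized counts were 161, 97.5 and 170.2 for R98S clones 11, 13 and 35, and 776, 225 and 422 for WT clones 28, 29 and 36. Every R98S clone was below every WT clone, as for 11.6% of all tested genes, and the 3 WT clones differed among themselves by up to 3.45-fold. The log2 change was -1.59 (standard error 0.42, adjusted p = 0.0755, limma; exact permutation p = 0.1, two-sided, the smallest possible). The change remained under the threshold in limma only without WT clone 29; without R98S clone 11, 13 or 35 or WT clone 28 or 36, the adjusted p was 0.161, 0.274, 0.112, 0.103 and 0.1996. RPFs were few, with 8.51, 12.6 and 23.5 for the R98S clones and 23.9, 26.0 and 75.1 for the WT clones, which rest on 14 to 57 reads. The genotypes did not overlap, as for 12.8% of all tested genes, but R98S clone 35 and WT clone 28 nearly met, at 14 and 25 reads, so their order is not settled by so few reads. The log2 change of RPF was -1.34 (standard error 0.52, adjusted p = 0.175, limma), with 0.0702 in DESeq2 on recovered reads. TE was not tested because 1 library was under 10 normalized counts. *Atf5* shares 82 exon bases with *Il4i1* and *Nup62* on the opposite strand.

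*Ddit3* (chr10:127290774-127296288, plus strand) encodes CHOP, a factor linked to cell death under lasting stress. Normalized mRNA counts of 295, 210 and 758 were found in R98S clones 11, 13 and 35, with 473, 562 and 451 for WT clones 28, 29 and 36. R98S clones 11 and 13 were below and R98S clone 35 above every WT clone. The log2 change of the genotypes was -0.45 (standard error 0.41, adjusted p = 0.617, limma). RPFs of the R98S clones came to 26.6, 23.5 and 75.6, and those of the WT clones to 35.3, 71.8 and 58.0, in the same order for the R98S clones (log2 change -0.53, adjusted p = 0.550, limma). TE stayed between 0.0748 and 0.128 in all 6 clones. A second gene identifier named *Ddit3* shares 105 exon bases on the same strand and *Mars* shares 68 on the opposite one, so its counts are uncertain to that extent.

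*Asns* (chr6:7675169-7693254, minus strand) encodes asparagine synthetase, a standard target of ATF4 when amino acids are short. R98S clones 11, 13 and 35 held 5184, 6019 and 4404 normalized counts of its mRNA, and WT clones 28, 29 and 36 held 5062, 3418 and 6291. For RPF, the R98S clones held 2921, 3272 and 1736 and the WT clones held 4250.1, 1689 and 3257. R98S clone 35 was lowest of its genotype and WT clone 29 lowest of all in both assays, unlike in *Atf4*, where R98S clone 35 was the highest of its genotype. The log2 change was 0.11 in mRNA (95% confidence interval -0.42 to 0.64, adjusted p = 0.855, limma) and -0.16 in RPF (-0.90 to 0.57, adjusted p = 0.819, limma).

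*Trib3* (chr2:152337422-152344032, minus strand) encodes a pseudokinase that is induced by ATF4 and CHOP and restrains them. The mRNA of R98S clones 11, 13 and 35 came to 432, 638 and 1753 normalized counts, against 1386, 1132 and 896 for WT clones 28, 29 and 36. R98S clones 11 and 13 were below every WT clone and R98S clone 35 was above them (log2 change -0.51, standard error 0.44, adjusted p = 0.591, limma). Footprinting gave 236, 450.1 and 819 for the R98S clones and 429, 524 and 460 for the WT clones. The clones of R98S cells thus spanned both sides of the WT clones, and the RPF change was -0.08 in limma (adjusted p = 0.923) and 0.08 in both edgeR and DESeq2. TE was 0.547, 0.705 and 0.467 in R98S clones and 0.310, 0.462 and 0.513 in WT clones (log2 change 0.43, adjusted p = 0.666, limma), with overlap.

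*Sesn2* (chr4:132492032-132510501, minus strand) encodes sestrin 2, a leucine sensor that inhibits mTORC1. In mRNA, normalized counts were 1146, 1135 and 3425 for R98S clones 11, 13 and 35, and 1380.3, 1378 and 1546 for WT clones 28, 29 and 36. RPFs of the R98S clones came to 491, 537 and 1266, and those of the WT clones to 576, 456 and 555. R98S clone 35 was above all other clones in both assays, and the remaining 5 clones lay close together. The log2 change was 0.20 in mRNA (adjusted p = 0.834, limma) and 0.40 in RPF (adjusted p = 0.514, limma), and without R98S clone 35 it was -0.33 and -0.04.

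The phosphatase subunits differed in how much they varied. *Ppp1r15a* (chr7:45522916-45526268, minus strand) encodes GADD34, which is induced by the response and ends it. Normalized mRNA counts of 897, 824 and 1913 were found in R98S clones 11, 13 and 35, with 1589.8, 1584 and 1780.4 for WT clones 28, 29 and 36. For RPF, the R98S clones held 75.5, 97.2 and 307 and the WT clones held 174, 261 and 245. In both assays, R98S clones 11 and 13 were below every WT clone and R98S clone 35 above them. The log2 change was -0.55 in mRNA (standard error 0.29, adjusted p = 0.367, limma) and -0.76 in RPF (standard error 0.43, adjusted p = 0.359, limma). *Ppp1r15b* (chr1:133131143-133139783, plus strand) encodes CReP, the constitutive counterpart. The R98S clones, in the same order, held 4795, 4247 and 6112 of its mRNA and the WT clones held 5231, 5264 and 5428. Footprinting gave 932, 869 and 1125 for the R98S clones and 1041, 1029 and 1008 for the WT clones. The 3 WT clones were within 1.04-fold of each other in mRNA, and the TE of all 6 clones lay between 0.184 and 0.205. Its log2 change was -0.09 in mRNA (95% confidence interval -0.48 to 0.31) and -0.08 in RPF (-0.46 to 0.29), with adjusted p of 0.847 and 0.824 (limma). *Gm26616* shares 640 exon bases with *Ppp1r15b* on the opposite strand.

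For several of these genes, R98S clone 35 lay apart from R98S clones 11 and 13. This description of R98S clone 35 was made after its values were seen, and the same count was taken for every clone. In mRNA, R98S clone 35 was at least 2-fold above both other clones of its genotype for 5 of the 10 genes (*Atf4*, *Ddit3*, *Trib3*, *Sesn2* and *Ppp1r15a*), against 1.86% of all tested genes. In RPF it was so for 4 of the 10 (*Atf4*, *Ddit3*, *Sesn2* and *Ppp1r15a*), against 2.00%. The same held in mRNA for 3 of 41 further ATF4 targets, 1 of 18 genes of eIF2 and its regulators and 1 of 16 other genes of the unfolded protein response, and in RPF for 2 of 40, 1 of 18 and 1 of 16. R98S clone 35 was also the highest of the 6 clones for 8 of these 16 unfolded protein response genes in mRNA, against 13.2% of all tested genes, and for 7 in RPF, against 14.9%. For each of the other 5 clones, 0 of the 10 genes were 2-fold above both clones of the same genotype in mRNA. The share of all tested genes in these clones was 0.652% to 3.51%, so 0 of 10 says little about the 10 genes. In RPF, 1 gene in 1 other clone was, *Atf5* in WT clone 36, against 0.376% to 1.27% of all tested genes in the other 5 clones. In TE, R98S clone 35 was 2-fold above both for 0 of 9 genes and 2-fold below both for 0. Over all tested genes these shares were 0.896% and 0.464%. The TE of *Atf4* in WT clone 28 was at least 2-fold below both other WT clones, as for 3.39% of all tested genes. The mRNA of *Atf4* was 2.73-fold and its RPF 4.57-fold above the next R98S clone, and the highest R98S clone held 7.40-fold the *Atf4* RPF of the lowest, against 1.75-fold in WT clones. The standard deviation of log2 *Atf4* RPF over the R98S clones was 1.505, at percentile 99.6 of all tested genes, and 0.44 over the WT clones, at percentile 78.0. For *Ppp1r15a* the RPF standard deviation was 1.07 (percentile 98.5) in R98S and 0.31 (percentile 59.1) in WT clones. For *Sesn2* mRNA it was 0.92 (percentile 96.7) in R98S and 0.10 (percentile 8.47) in WT clones. R98S clone 35 had the shallowest footprinting library, but its mRNA library held 20576796 reads, close to the 22178094 and 21217231 of R98S clones 11 and 13. The median log2 mRNA shift of all genes on a chromosome was read for R98S clones 11, 13 and 35. It was 0.01, -0.07 and 0.03 for the chromosome of *Atf4* and -0.04, -0.13 and 0.04 for that of *Ddit3*. For the chromosome of *Trib3* it was -0.08, 0.28 and -0.03. For those of *Sesn2* and *Ppp1r15a* it was 0.09, 0.04 and 0.13, and 0.10, 0.02 and 0.14. The part of depth or of chromosome shifts in this pattern was not tested.

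Leaving out R98S clone 35 moved the calls of these genes. Lower mRNA then passed for 4 of the 10, *Atf4* (log2 change -1.12, adjusted p = 0.0672), *Ddit3* (-0.98, 0.0744), *Trib3* (-1.09, 0.0696) and *Ppp1r15a* (-0.94, 0.0318), all in limma, against 3.74% of tested genes called lower in that fit. Lower RPF passed for 3, *Atf4* (log2 change -2.49, adjusted p = 0.00164), *Ppp1r15a* (-1.37, 0.0182) and *Atf5* (-1.71, 0.0862), against 6.7% of tested genes called lower. In TE, 0 genes passed, and the *Atf4* change was -1.37 (adjusted p = 0.443, limma). These fits compare 2 R98S clones with 3 WT clones, and the clone was left out after its values were seen, so they describe R98S clones 11 and 13. For *Asns*, *Sesn2*, *Ppp1r15b* and both kinases, no call was made with or without R98S clone 35.

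Levels were compared between genes per length of exon or coding sequence. In WT clones, *Atf4* mRNA was highest, at 6043 ± 1766 (SD, n = 3) normalized counts per kb of exon, followed by *Asns* (1800.2 ± 527) and *Ppp1r15b* (949 ± 18.9). Then came *Ppp1r15a* (562 ± 38.1), *Trib3* (536 ± 115), *Sesn2* (413 ± 27.7), *Ddit3* (289 ± 34.2) and *Atf5* (238 ± 140.1). *Eif2ak4* (101 ± 22.0) and *Eif2ak3* (83.9 ± 8.78) were lowest. Neighbours whose mean ± SD overlapped were *Ppp1r15a* and *Trib3*, *Trib3* and *Sesn2*, *Ddit3* and *Atf5*, *Atf5* and *Eif2ak4*, and both kinases. RPFs per kb of coding sequence were led by *Atf4* (2481 ± 682) and *Asns* (1889 ± 796), with overlapping mean ± SD, and *Eif2ak4* (28.9 ± 5.92) had the lowest mean, overlapping with *Eif2ak3* (36.9 ± 4.20) and *Atf5* (52.8 ± 36.7).

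Relative footprint density, the RPFs per coding length over the mRNA per exon length, was ranked among 8788 genes in WT clones as a description, with no test. *Ppp1r15a* was at percentile 1.88 and *Eif2ak4* at 5.05. *Atf4* was at 11.7, *Ddit3* at 13.0, *Eif2ak3* at 13.6 and *Ppp1r15b* at 19.5. The targets *Trib3* (42.6), *Sesn2* (45.7) and *Asns* (52.3) were near the middle. *Atf4* ranged from percentile 4.69 to 30.4 among WT clones and was at 0.410, 2.77 and 6.65 in R98S clones 11, 13 and 35. Over the 8686 genes with an annotated leader, the median percentile was 55.9 without an upstream ATG and 44.1 with at least 1. It was 40.0 with a frame that overlapped the coding start. *Eif2ak4* had 0 upstream ATGs and one of the lowest densities of the 9 genes ranked. These ranks depended on the lengths used: with no division by length, *Ppp1r15a*, *Eif2ak4* and *Eif2ak3* moved to percentiles 13.3, 26.5 and 35.1, *Atf4* and *Ppp1r15b* to 20.0 and 24.5, and *Trib3*, *Sesn2* and *Asns* to 64.7, 57.9 and 85.5, whereas *Ddit3* moved to 8.77.

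**Figure D4:**
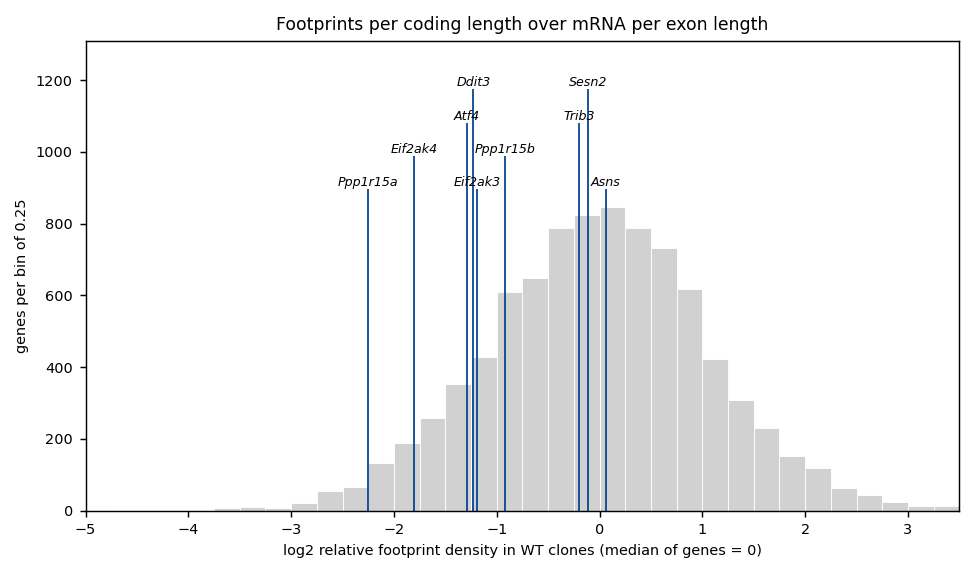
Relative footprint density in WT clones for 8788 genes (grey bars, number of genes per bin) on a log2 scale with the median of all genes at 0, and lines at 9 of the 10 genes. *Ppp1r15a* (percentile 1.88) lies furthest left, and *Asns*, *Sesn2* and *Trib3* lie near the middle.

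Further genes of the pathway were read from lists. Of 48 further ATF4 targets, 41 were tested in mRNA, of which limma called 2 higher and 0 lower in R98S clones (5 higher and 3 lower had an unadjusted p under 0.05), and 40 in RPF, of which it called 2 higher and 1 lower. On recovered reads, edgeR called 2 higher and 1 lower in mRNA and 3 and 1 in RPF, and DESeq2 called 4 and 3 in mRNA and 3 and 2 in RPF. Over all tested genes, 3.03% were higher and 3.91% lower in mRNA, and 3.13% and 4.62% in RPF (limma). An unadjusted p under 0.05 in mRNA was found for 17.9% of them (limma). Of all 11344 genes in mRNA, edgeR called 357 higher and 445 lower, and DESeq2 called 591 and 692. Of all 9580 genes in RPF, edgeR called 328 higher and 472 lower, and DESeq2 called 469 and 626. The targets had median log2 changes of -0.07 and -0.08. *Psph*, the last enzyme of serine synthesis, was higher in mRNA (482 ± 65.1 against 59.4 ± 11.5 normalized counts, mean ± SD, n = 3; log2 change 3.01, adjusted p = 0.000297, limma) and in RPF (log2 change 4.36, adjusted p = 0.00017, limma). *Ddit4*, an mTORC1 inhibitor also known as REDD1, had 1799.7, 2384 and 1049.7 normalized counts of mRNA for R98S clones 11, 13 and 35 and 414, 586 and 549 for WT clones (log2 change 1.69, adjusted p = 0.0134, limma) and was higher in RPF by 1.73 (adjusted p = 0.0180, limma). Lower RPF passed for *Gpt2*, an alanine transaminase (log2 change -0.79, adjusted p = 0.0910, limma), a call that was kept without WT clone 29 (adjusted p = 0.0281) and lost without any other single clone (adjusted p from 0.141 to 0.253) or with chromosome medians removed (0.186). The mRNA of *Gpt2* changed by -0.77 (adjusted p = 0.107, limma). The calls of *Psph* and *Ddit4* were kept without any single clone. The 7 targets that were too low to be tested included *Chac1* and *Atf3*, both with at most 2.69 normalized counts of mRNA in any library.

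Of 18 genes of eIF2, its exchange factor and its regulators, limma called 1 higher in mRNA and 2 lower in RPF. For these, edgeR called 1 higher in mRNA and 1 lower in RPF, and DESeq2 called 2 higher and 1 lower in mRNA and 3 lower in RPF. The calls over all genes are those given above for each method. *Eif2ak1*, which encodes the heme-regulated eIF2 kinase HRI, had 1634 ± 45.1 (SD, n = 3) normalized counts of mRNA in R98S and 1005.3 ± 168 in WT clones (log2 change 0.71, adjusted p = 0.0646, limma), and its RPF change was 0.26 (adjusted p = 0.574, limma). *Eif2a*, an alternative initiation factor, had RPFs of 498 ± 76.6 in R98S and 909 ± 89.8 in WT clones (log2 change -0.87, adjusted p = 0.0273, limma). The mRNA of *Eif2a* changed by -0.52 (adjusted p = 0.151, limma) and that of *Ifrd1* by -0.97 (adjusted p = 0.208, limma). *Ifrd1* RPF was lower by -1.36 (adjusted p = 0.0728, limma), with R98S clone 35 at 390 against 136 and 121 in R98S clones 11 and 13, and the call was kept without R98S clone 35 (-1.90, adjusted p = 0.00142), lost without any other single clone (adjusted p from 0.120 to 0.273) and lost in edgeR (0.108). That of *Eif2ak1* was lost without R98S clone 11, 13 or 35 or WT clone 36 (adjusted p from 0.123 to 0.213), and that of *Eif2a* without R98S clone 13 (0.134). Among 16 other genes of the unfolded protein response, *Xbp1*, the factor spliced by IRE1, was lower in mRNA (1906 ± 390.2 against 3438 ± 313 normalized counts, log2 change -0.87, adjusted p = 0.0349, limma) and in RPF (-0.66, adjusted p = 0.0663, limma). The mRNA call was lost without R98S clone 11 or 13 (adjusted p = 0.1698 and 0.145), and the RPF call without R98S clone 11 or 13 or WT clone 29 or 36 (0.136 to 0.225). The chaperone gene *Hspa5* changed by -0.24 in mRNA and -0.55 in RPF (adjusted p = 0.672 and 0.240, limma). In TE, 0 genes of the 3 lists passed in limma. An unadjusted p under 0.05 was found for 2 of 39, 1 of 18 and 1 of 16, against 7.85% of all genes. *Psph* had a TE of 0.722 ± 0.111 in R98S and 0.278 ± 0.0979 in WT clones, without overlap. Its log2 change of TE was 1.36 (unadjusted p = 0.000357, adjusted p = 0.404, limma). The study reported a significantly higher TE of *Psph* with its own test. It also reported, by qRT-PCR, a shift of *Psph* mRNA in R98S clones toward fractions with many bound ribosomes. For TE, edgeR called 0 genes of these lists, and DESeq2 called *Psph* higher and *Eif2s2*, the beta subunit of eIF2, lower.

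The further targets were also compared by the clone in which each was lowest or highest, with no test. In mRNA, WT clone 29 was lowest for 19 and R98S clone 35 for 6 of the 41 targets, against 16.9% and 12.4% of all tested genes, and WT clone 36 was highest for 18, against 13.7%. In RPF, the lowest of the 6 clones was WT clone 29 for 19 and R98S clone 35 for 13 of the 40 targets, against 20.6% and 14.1% of all tested genes, and the highest was WT clone 28 for 23, against 20.2%. WT clone 29 was also lowest for 8 of 18 genes of eIF2 and its regulators in mRNA and for 6 in RPF. Among 16 other genes of the unfolded protein response, it was lowest for 6 in mRNA and 8 in RPF. Its low values were thus not particular to the targets. Across the 6 libraries, the gene whose RPFs followed *Asns* most closely among all tested genes was *Nars*, the asparaginyl-tRNA synthetase and itself one of the targets (Pearson's r = 0.999, n = 6 libraries). The R98S clones had 5042, 5387 and 3528 normalized RPF counts of *Nars*, and the WT clones had 6572, 3559 and 5400.1. *Zfyve16* (r = 0.986) and *Il10ra* (0.985) came next. In mRNA the closest to *Asns* were *Nek9*, *Nars* and *Tmem151a* (r = 0.988, 0.986 and 0.981). For *Atf4*, they included *Zfp296* and *Osm* in mRNA (r = 0.994 and 0.993) and were *Srebf2*, *Mocos* and *Mbtps1* in RPF (r = 0.993, 0.992 and 0.987). Among the 10 genes, *Ppp1r15a* was closest to *Atf4* in RPF (r = 0.978) and *Asns* had r = -0.39 with it. These correlations are descriptions over 6 libraries, in which both genotype and clone differ, and the named genes are among the closest of all tested genes.

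**Figure D5:**
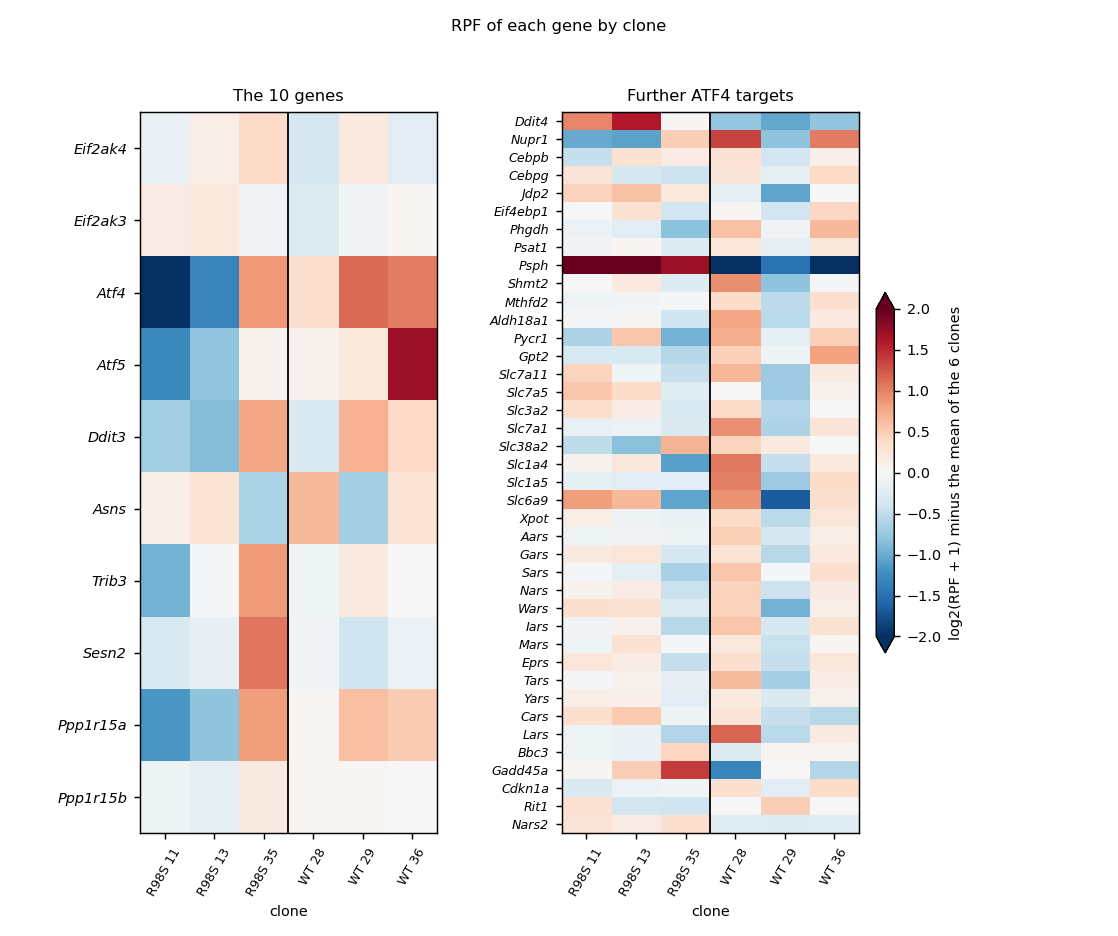
Log2(RPF + 1) of each gene minus its mean over the 6 clones (colour, blue below and red above the mean, cut at 2), for the 10 genes at left and 40 further ATF4 targets at right, with R98S clones left of the black line. R98S clones 11 and 13 are below and R98S clone 35 is above the mean for *Atf4*, *Ddit3* and *Ppp1r15a*, whereas many targets are lowest in WT clone 29 and highest in WT clone 28.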

How the data were processed

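Ribosome footprinting and mRNA sequencing libraries of 6 monoclonal Ba/F3 cultures were used. Per the labels and the study's methods, the authors removed adapters and ribosomal and transfer RNA reads (Bowtie2), aligned to mm10 with TopHat2 2.0.11, kept reads with a mapping quality of at least 10 and of at least 20 bases, merged 3 technical replicates per footprinting library and counted reads over exons (mRNA) or coding sequences (RPF). The deposited values are a signal: counts divided by DESeq2 size factors, 1 table per assay, normalized separately. Whether counting used strand is not given in the sources used here. Whole reads were recovered for 100% of values (tolerance 0.1 reads) and used only in alternatives.

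Genes with a mean of at least 10 normalized counts were tested with limma 3.58.1 (R 4.3.3; trend, two-sided) on log2(value + 1). TE was log2(RPF + 1) minus log2(mRNA + 1) within a clone, for genes with at least 10 in all 12 libraries; the study's Babel test was not run. Clone numbers in the labels pair the 2 libraries of a clone, and their deviations from the genotype means had a mean r of 0.519 (0.218 to 0.681). The lowest, 0.218, was that of WT clone 28, beside 0.193 with another WT clone, so its pairing rests on the labels. For the other clones, r with another clone was at most 0.0632. Alternatives were a pseudocount of 0.5, no filter, a minimum of 50, TMM scaling, removal of chromosome medians, edgeR 4.0.16, DESeq2 1.42.0, no pairing and leaving out each clone. Scripts were tested on simulated data. Positions, exon lengths and reading frames come from GENCODE vM21 (mm10), promoters from RefSeq. The 10 genes and all lists were chosen with earlier results of these data known. Named were the 10 genes, *Rpl10*, up to 6 genes per list past the threshold, and the 3 genes closest to *Atf4* and *Asns* per assay, of which 1 is not reported here; *Chac1*, *Atf3*, *Hspa5*, *Pax5*, *Il7r* and the genes sharing bases are named beyond it, with their values known.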

Additional observations from a re-analysis of the deposited data

How the results depend on the processing

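With any 1 clone left out, 0 to 4 of the 10 genes passed in mRNA, 0 to 3 in RPF and 0 to 0 in TE. Over all genes, the counts then ran from 130 to 491 higher and 182 to 622 lower in mRNA, from 65 to 506 and 164 to 642 in RPF, and from 0 to 1 and 0 to 2 in TE. DESeq2 on recovered reads called 591 genes higher and 692 lower in mRNA, 469 higher in RPF, and 16 higher and 38 lower in TE, and 1 of the 10 genes in RPF. Without a filter on low values, TE was lower for 4 genes. Without the pairing of libraries by clone (no replicate block), TE passed for 0 of the 9 genes tested, as with it, and for 0 higher and 3 lower genes in all (0 and 2 with it), and the *Atf4* change kept its size of -1.01 with an adjusted p of 1.00 in place of 0.629. Signs near 0 turned in several cases, none of them a call. With 1 clone left out, the mRNA change ran from -0.13 to 0.31 for *Asns*, from -0.33 to 0.47 for *Sesn2*, from -0.23 to 0.029 for *Ppp1r15b* and from -0.16 to 0.13 for *Eif2ak3*, which was 0.019 with chromosome medians removed. The RPF change ran from -0.54 to 0.12 for *Asns*, from -0.52 to 0.37 for *Trib3* and from -0.035 to 0.65 for *Sesn2*, and that of *Trib3* was 0.078 in edgeR and 0.084 in DESeq2. The TE change ran from -0.34 to 0.047 for *Ddit3*, from -0.43 to 0.027 for *Ppp1r15a* and from -0.031 to 0.045 for *Ppp1r15b*. The median percentile of footprint density of 9 genes was 13.6, and 26.5 without division by length (dividing both assays by 1 transcript length cancels and is the same setting). The cause of these differences was not tested. Depth limits *Atf5* most, whose RPFs rest on 14 to 57 reads per library.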
